A study of Rattus norvegicus with 16 samples.

Results

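The Fos and Jun families supply the subunits of AP-1, a dimeric transcription factor. The members described here were Fos, Fosl1, Fosl2, Jun, Junb and Jund, 6 of the 4736 genes to which the array's annotation gave a probe set of their own. They were found as every probe set annotated with 1 of these 6 symbols, which gave 13 of the 8740 probe sets that were not controls. Jun had 4 of them, Fos 3, Fosl2 2, Junb 2, Fosl1 1 and Jund 1.

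Total RNA from rat dentate gyrus, the hippocampal field that takes in most cortical input, was hybridised to 16 Affymetrix RGU34A arrays, which carry short probes in 1 colour. Passive avoidance is a task in which an animal learns to withhold a response that had an unpleasant outcome. The groups were 0 h (2 arrays), 2 h (2), 3 h (2), 6 h (3), 12 h (2), 24 h (2) and naive (3). Strain, age and sex were not given in the labels. Every label, naive ones too, named trained rats, and none stated the event from which the hours run. Here naive is read as untrained, and trained stands for the 13 arrays of the 6 hour groups. Whether replicates were separate animals is not stated, so the spread behind the p-values is that of these samples and may be technical.

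AP-1 forms when a Jun protein pairs with a Fos protein or with another Jun protein through a leucine zipper, and it binds short DNA elements in the control regions of its target genes. Fos, Jun and Junb are classic immediate early genes: in neurons their transcripts rise within minutes of strong activity and are lost again within hours. Fosl1 and Fosl2 encode Fos-related antigens that usually appear later, and Jund is expressed more steadily in many tissues. In the dentate gyrus, Fos is widely used as a marker of granule cells that were recently active.

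Several members are themselves controlled through the elements that AP-1 and its relatives bind, so the stretch before the start of Jund and of Junb is shown, from RefSeq on build GRCr8, read 5′ to 3′ on the gene's strand. The windows hold the 250 bases before the annotated start, and capitals mark TGACGTCA, the element that binds CREB and ATF factors as well as Jun dimers. Entries for 4 of the 6 members, Fosl1, Fosl2, Junb and Jund, were matched, and those for Fos and Jun were not.
Jund, chr16:18769772-18770021, minus strand: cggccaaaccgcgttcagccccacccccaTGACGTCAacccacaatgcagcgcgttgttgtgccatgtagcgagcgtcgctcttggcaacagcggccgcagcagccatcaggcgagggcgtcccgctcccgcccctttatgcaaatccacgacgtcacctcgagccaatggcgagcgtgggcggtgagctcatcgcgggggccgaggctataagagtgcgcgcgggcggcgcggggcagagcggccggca
Junb, chr19:40080876-40081125, plus strand: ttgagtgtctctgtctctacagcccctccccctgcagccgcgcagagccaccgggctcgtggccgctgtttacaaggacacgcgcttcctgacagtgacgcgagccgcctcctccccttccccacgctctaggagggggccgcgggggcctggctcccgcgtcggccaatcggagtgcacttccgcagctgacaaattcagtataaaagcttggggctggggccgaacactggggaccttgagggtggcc
Jund held 1 copy of TGACGTCA, whose first base lay 221 bases before the start. The AP-1 element TGACTCA, searched on both strands, and the CArG box, through which serum response factor acts, were found in none of the 4 windows, nor was TGACGTCA in Fosl1, Fosl2 or Junb. Among 33465 rat windows of the same length, 1.59% held TGACGTCA, 4.05% held TGACTCA and 1.5% held a CArG box. These are matches of letters in a short window and say nothing of what binds there.

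The arrays differed in brightness as deposited, with trimmed mean intensities between 33.3 on 12 h replicate 1 and 170 on 24 h replicate 2, and were scaled to a common trimmed mean of 105. All levels below are intensities on that scale, which can be compared between arrays for 1 probe set but not between probe sets. Differences are on the log2 scale after values under 5.05, called the lowest level, were raised to it. The dentate granule neuron genes Calb1, Pdyn and Neurod1 were present on all 16 arrays, at 289 to 498, 242 to 458 and 72.1 to 167, while Tdo2, another marker of mature granule neurons, lay at the lowest level on 14. For beta-actin the 3′ signal divided by the 5′ signal, a ratio that grows as RNA is shortened, was 1.51 to 2.80 on trained arrays and 1.49 to 1.70 on naive arrays, and 12 of the 13 trained arrays exceeded every naive array. The same ratio for Gapdh was 1.13 to 2.04 on trained arrays and 1.12 to 1.28 on naive arrays. Ttr, the choroid plexus transcript for transthyretin, was below every naive array on 10 of the 13 trained arrays. The summed level of 10 choroid plexus and meningeal markers was 419 to 4963 on trained arrays and 2422 to 6062 on naive arrays. Ttr alone reached 3982 on a trained array and 3939 on a naive array, so high sums rest largely on it. Enpp2, Sostdc1, Igf2, Igfbp2 and Slc4a2 were highest on a naive array. Col1a1, Col1a2 and Dcn were not: they reached 222, 71.7 and 99.1 on trained arrays against 80.5, 63.0 and 74.0 on naive arrays. Nor was Kcnj13, which was at the lowest level on 13 arrays and reached 8.18 on a trained and 4.90 on a naive array.

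No member changed past the threshold. In the limma fit over 6220 tested probe sets, none of the 10 tested member probe sets had a Benjamini-Hochberg adjusted p under 0.05 in any of the 10 comparisons: each of 6 hours against naive, trained against naive, 0 h against the 5 later times, and F tests across all 7 groups and across the 6 hour groups alone. Over all tested probe sets the share past that threshold was 0.0161% at 2 h and 0% in the other 9 comparisons. At an unadjusted p under 0.05, 3 of the 10 member probe sets passed at 12 h, 2 in trained against naive, 0 in 0 h against later times, and 1 in each of the others. The matching shares of all tested probe sets were 10.1% at 12 h, 5.35% for trained against naive, 9.86% for 0 h against later times, 5% at 0 h, 7.67% at 2 h, 4.31% at 3 h, 9.41% at 6 h, 4.44% at 24 h, 10.3% for the F test over 7 groups and 10.8% for that over the 6 times. In 7 of the 10 comparisons a single member probe set was below that limit, near the background for 10 probe sets, and the counts of 3 at 12 h and 2 in trained against naive were above it. Those comparisons share the naive arrays and, among the members, Jun X17163cds_s_at and rc_AI175959_at. A p that misses the threshold does not show equal levels, and the 95% intervals below give the sizes still compatible with the arrays. In tissue RNA, fewer cells of a type and less RNA per cell cannot be told apart.

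**Figure D1:**
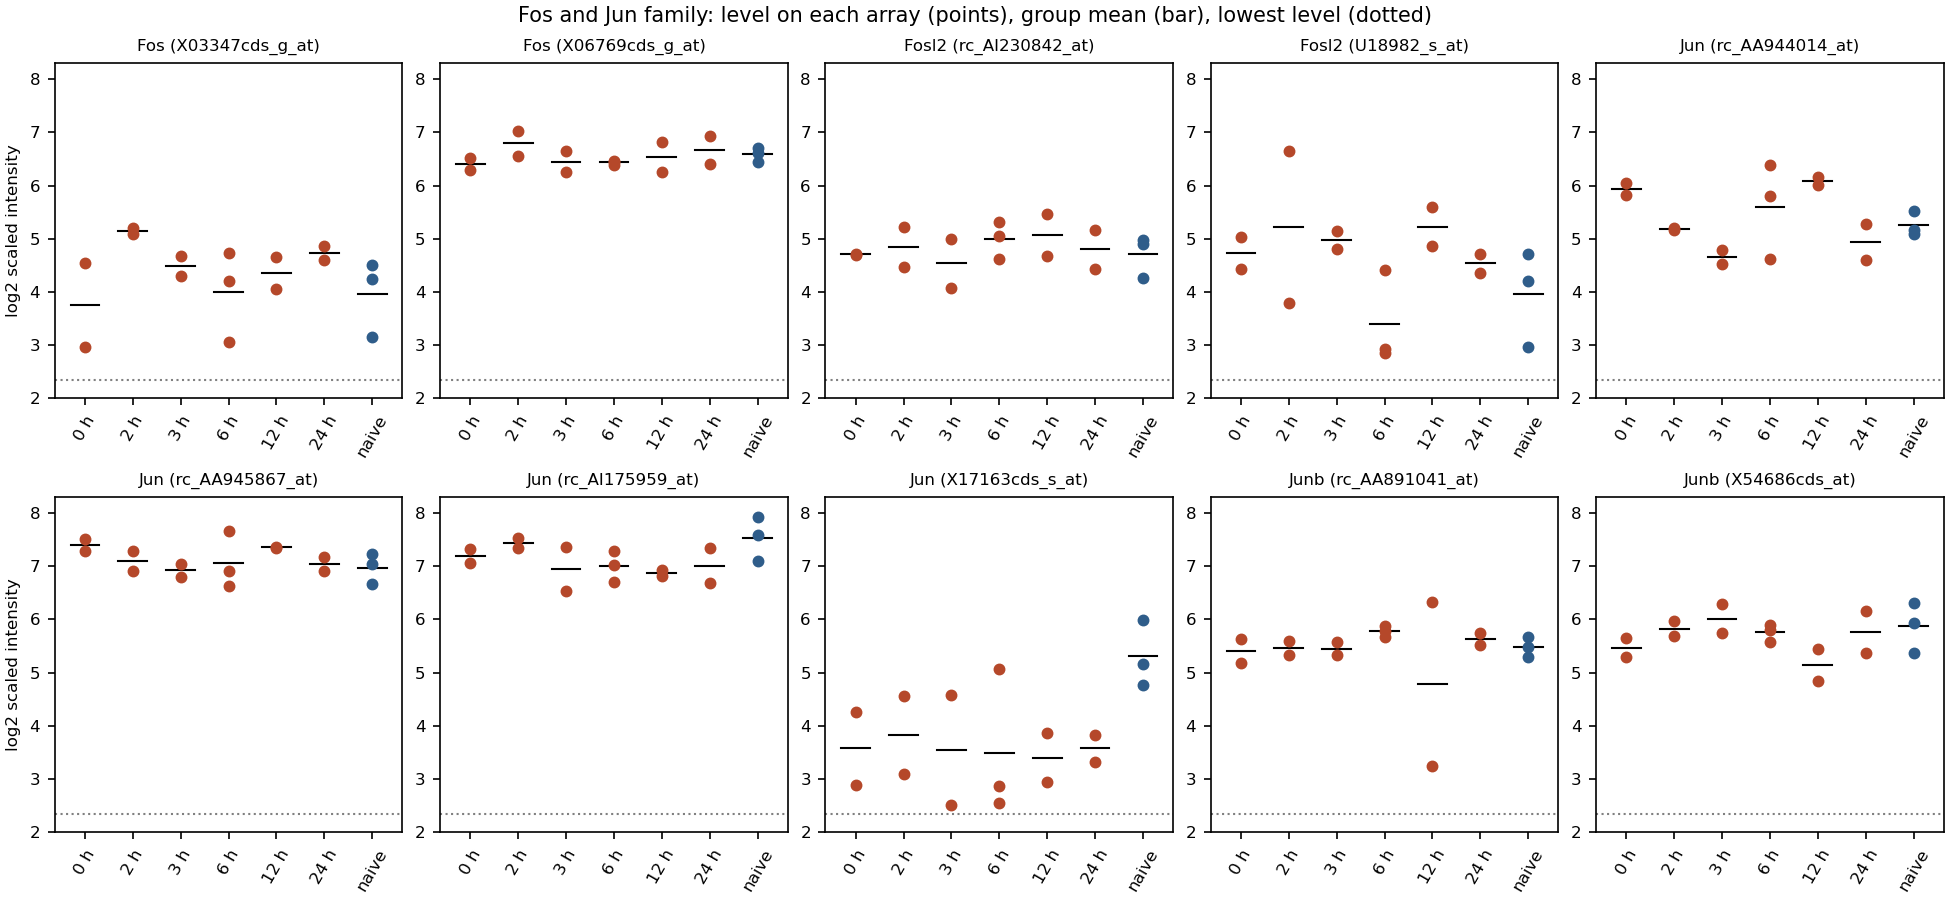
Level of the 10 tested member probe sets on each array (points, log2 scaled intensity) in the 6 hour groups and in naive. Bars are group means and the dotted line is the lowest level. The Jun probe set X17163cds_s_at is the only panel in which most hour groups lie wholly below naive; at 2 h the Fos probe set X03347cds_g_at and at 12 h the Jun probe set rc_AA944014_at lie wholly above it.

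Fos encodes the partner that gives AP-1 its strongest DNA binding. Its brightest probe set, X06769cds_g_at, read 78.3 and 92.1 at 0 h, 130.3 and 94.7 at 2 h, 100.2 and 76.0 at 3 h, 87.2, 88.7 and 83.9 at 6 h, 113 and 76.6 at 12 h, and 121 and 84.3 at 24 h, against 97.8, 104 and 87.1 on naive arrays. Both the highest array, 2 h replicate 1, and the lowest, 3 h replicate 2, were trained, and every hour group had an array inside or across the naive range. Ordered by mean the groups ran 2 h, 24 h, naive, 12 h, 3 h, 6 h and 0 h, with every pair of neighbours overlapping, and the highest mean was 1.31-fold the lowest. The trained minus naive difference was -0.04 (95% interval -0.42 to 0.34), and 2 h minus naive was 0.21 (-0.33 to 0.75), so the upper limit at 2 h corresponded to a 1.68-fold rise. The spread within groups was small, with a residual SD of 0.25 on the log2 scale, at the 18.7th percentile of all tested probe sets.

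The second tested Fos probe set, X03347cds_g_at, was dimmer and more scattered. It read 7.79 and 23.2 at 0 h, 36.9 and 33.8 at 2 h, 25.4 and 19.7 at 3 h, 26.5, 8.31 and 18.4 at 6 h, 16.7 and 25.1 at 12 h, and 29.2 and 24.1 at 24 h, against 8.89, 22.7 and 18.8 on naive arrays. The 2 arrays of 2 h were the highest of all 16, and both 2 h and 24 h lay wholly above naive. All arrays above naive was a pattern of 15.3% of tested probe sets at 2 h and of 8.86% at 24 h. At 2 h the mean was 2.26-fold that of naive, a log2 difference of 1.18 with an SE of 0.54, unadjusted p = 0.0455 and adjusted p = 0.636 by limma. The interval ran from 0.03 to 2.33, and without naive replicate 1, the array at 8.89, the difference was 0.77. The 2 Fos probe sets thus gave 1.18 and 0.21 for the same comparison, and their levels correlated with r = 0.36 over the 16 arrays.

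The third Fos probe set, X06769cds_at, was at the lowest level on 11 of 16 arrays and was not tested. Before that level was applied it read 9.12 and 14.6 at 24 h and 6.67 and 5.21 at 2 h, against 4.49, 4.77 and 4.29 on naive arrays. The trained groups 0 h, 3 h and 6 h were wholly at the lowest level, as was naive, and 12 h had 1 array there. Against the lowest level, which bounds naive, the 24 h mean of 3.53 on the log2 scale lay above 2.34. The brightest Fos probe set, X06769cds_g_at, gave 121 and 84.3 on the same 24 h arrays, on either side of the naive range.

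Fosl1 and Fosl2 encode Fra-1 and Fra-2, Fos relatives without the strong activating region of Fos. Fosl1 (M19651_at) was at the lowest level on 13 of 16 arrays, with no array above 6.38, and was not tested. Fosl2 had a pair of tested probe sets. The brighter, rc_AI230842_at, read 26.4 and 25.8 at 0 h, 37.1 and 22.1 at 2 h, 32.1 and 16.9 at 3 h, 39.7, 24.6 and 33.3 at 6 h, 44.2 and 25.7 at 12 h, and 36.0 and 21.7 at 24 h, against 19.1, 29.8 and 31.6 on naive arrays. Every hour group overlapped naive, and the trained minus naive difference was 0.12 (95% interval -0.49 to 0.72).

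The other Fosl2 probe set, U18982_s_at, read 21.5 and 32.9 at 0 h, 13.8 and 101 at 2 h, 35.6 and 28.1 at 3 h, 7.27, 21.2 and 7.66 at 6 h, 29.1 and 48.4 at 12 h, and 26.3 and 20.5 at 24 h, against 18.4, 7.86 and 26.3 on naive arrays. The 3 h and 12 h groups lay wholly above naive, as did 7.3% of tested probe sets at 3 h and 15.9% at 12 h. The 2 h arrays were 101 and 13.8, and the residual SD of 0.93 was at the 97th percentile of all tested probe sets. The 12 h difference was 1.26 (95% interval -0.20 to 2.73; adjusted p = 0.548 by limma), and trained minus naive was 0.72 (-0.31 to 1.75). Without naive replicate 2, the array at 7.86, the 12 h difference was 0.77. The level also moved with the beta-actin ratio (r = 0.50 over 16 arrays), and with that ratio as a covariate trained minus naive was -0.49. Over the 16 arrays the 2 Fosl2 probe sets correlated with r = -0.36, although both had their highest group mean at 12 h.

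Jun encodes the main Jun subunit, which can bind DNA with itself or with any Fos protein. Its 4 probe sets fell into pairs. X17163cds_s_at and rc_AI175959_at lay below the naive mean on all 13 trained arrays, and rc_AA944014_at and rc_AA945867_at had their 0 h and 12 h arrays wholly above naive. How many of all tested probe sets had every trained array below the naive mean was not counted. The same holds for the counts of 12 and 7 trained arrays below the lowest naive array given below. Both X17163cds_s_at and rc_AI175959_at were highest on naive replicate 1, which raises their naive means.

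X17163cds_s_at, whose suffix s marks probes that can match more than 1 transcript, read 19.2 and 7.43 at 0 h, 23.5 and 8.56 at 2 h, 23.9 and 5.68 at 3 h, 33.5, 5.85 and 7.27 at 6 h, 14.5 and 7.65 at 12 h, and 14.2 and 10.02 at 24 h, against 63.3, 27.3 and 35.8 on naive arrays. Of the 13 trained arrays, 12 lay below the lowest naive array, the exception being 6 h replicate 1 at 33.5, and all 13 lay below the naive mean. At 5 of the 6 hours, all but 6 h, every array was below every naive array. Of all tested probe sets, 1.11% had at least 5 such hours, and at single hours the share was 11.7% at 0 h and 2 h, 12% at 3 h and 11.8% at 12 h and 24 h.

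The mean of the 6 trained groups was 3.34-fold lower than naive, a log2 difference of -1.74 with an SE of 0.54 and a 95% interval of -2.88 to -0.60. The unadjusted p was 0.0051 and the adjusted p 0.814 by limma, so the difference did not pass the threshold across all probe sets. The differences per hour lay between -1.48 at 2 h and -1.91 at 12 h, all against the same naive arrays, and single arrays moved them by more than that. Leaving out replicate 1 or replicate 2 of the hour gave -2.41 or -1.05 at 0 h, -2.21 or -0.75 at 2 h and -2.80 or -0.73 at 3 h. In all 7 groups replicate 1 was above replicate 2, an order shared by 1.83% of tested probe sets. The residual SD was 1.01, at the 98.5th percentile of tested probe sets, and the level was under 16.9 on 9 of 16 arrays. The value moved with the RNA measures: r with the beta-actin ratio was -0.60 over 16 arrays and -0.42 within the 13 trained arrays, and with that ratio as a covariate trained minus naive was -0.54 (unadjusted p = 0.454 by limma). Adjusting for Ttr in place of the ratio gave -1.03.

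The probe set rc_AI175959_at read 159.9 and 133 at 0 h, 163 and 185 at 2 h, 164 and 92.3 at 3 h, 156, 104 and 129.8 at 6 h, 113 and 122 at 12 h, and 161 and 103 at 24 h, against 244, 136 and 192 on naive arrays. All 13 trained arrays lay below the naive mean, 7 of them below the lowest naive array, and 12 h was the only hour wholly below naive. At 12 h, 11.8% of tested probe sets lay wholly below naive. Trained minus naive was -0.46 (SE 0.21; 95% interval -0.91 to -0.01; unadjusted p = 0.0444; adjusted p = 0.931 by limma). At 12 h the difference was -0.66 (unadjusted p = 0.0427; adjusted p = 0.485 by limma). Without naive replicate 1, the array at 244, trained minus naive was -0.26.

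The probe set rc_AA944014_at read 56.3 and 66.3 at 0 h, 35.7 and 36.6 at 2 h, 23.0 and 27.7 at 3 h, 55.7, 83.9 and 24.7 at 6 h, 64.1 and 71.6 at 12 h, and 38.8 and 24.3 at 24 h, against 34.1, 35.7 and 46.3 on naive arrays. The 0 h and 12 h arrays were wholly above naive, which held for 10% and 15.9% of tested probe sets at those hours. The 3 h arrays were wholly below it, as were 12% of tested probe sets. The 6 h arrays ran from one end of the range to the other. It was the member with the smallest p in both F tests, with F = 2.93 over the 7 groups (unadjusted p = 0.0389, adjusted p = 0.478 by limma) and F = 3.45 over the 6 trained times (unadjusted p = 0.0255, adjusted p = 0.408 by limma). Without 6 h replicate 3 the F statistic over the 6 times was 7.66 (adjusted p = 0.118 by limma).

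The probe set rc_AA945867_at read 155 and 182 at 0 h, 120.3 and 156 at 2 h, 111 and 132 at 3 h, 121, 202 and 98.3 at 6 h, 162 and 165 at 12 h, and 145 and 121 at 24 h, against 132, 101 and 149 on naive arrays. Its 0 h and 12 h arrays also lay wholly above naive, a pattern of 10% and 15.9% of tested probe sets. The log2 differences were 0.42 (95% interval -0.17 to 1.01) and 0.38 (-0.21 to 0.97). Averaged over the hours, the difference from naive was 0.17 (-0.24 to 0.59).

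**Figure D2:**
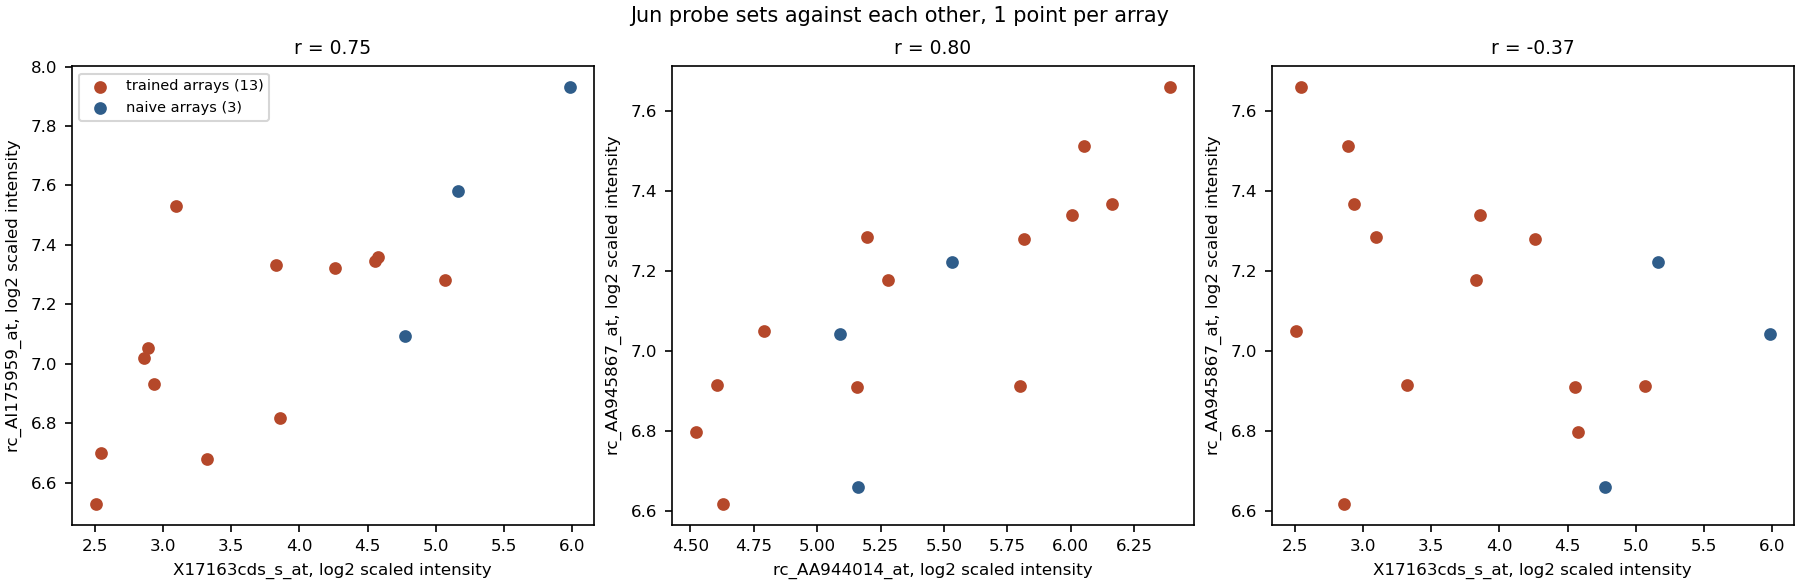
Jun probe sets against each other, 1 point per array, in log2 scaled intensity, with 13 trained arrays and 3 naive arrays. Within each pair the arrays line up (r = 0.75 and r = 0.80), and across the pairs they do not (r = -0.37 for the combination shown).

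Within the pairs the Jun probe sets correlated with r = 0.80 (rc_AA944014_at with rc_AA945867_at) and r = 0.75 (rc_AI175959_at with X17163cds_s_at). The 4 correlations across the pairs were -0.12, -0.14, -0.14 and -0.37. Among 1906 such pairs of probe sets from 1091 genes, the median r was 0.25 and 26.5% were below 0. Of the 9 pairs within the Fos and Jun family, 6 were below 0, and the median was -0.12. These correlations share the same 16 arrays and their scaling and are given as a description. Where each probe set lies on its transcript was not given in the sources used here.

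**Figure D3:**
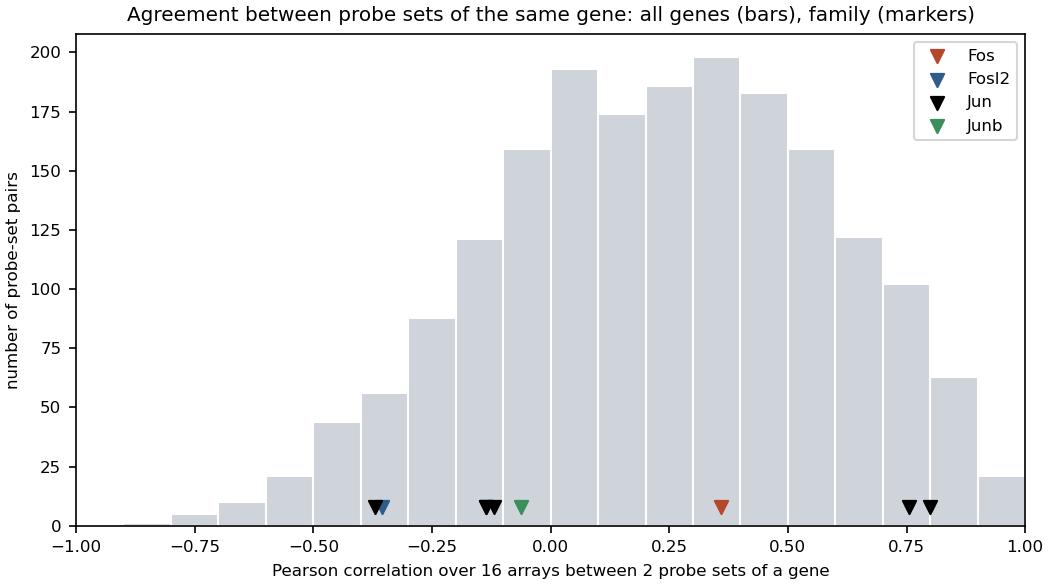
Pearson correlation over 16 arrays between 2 probe sets of the same gene: bars are the 1906 pairs of all genes with several tested probe sets, and markers are the 9 pairs of Fos, Fosl2, Jun and Junb, drawn at a fixed height. Of the family's markers, 2 Jun pairs lie at 0.75 and 0.80 and the Fos pair at 0.36. The other 6 lie below 0, the lowest at -0.37, and include the combinations across the Jun pairs.

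The Jun pairs had correlations of opposite sign with the same RNA measures. The r of rc_AA944014_at with the log2 Gapdh 3′/5′ ratio was 0.83 over 16 arrays, at the 99.8th percentile of all tested probe sets, and 0.86 within the 13 trained arrays. For rc_AA945867_at the r was 0.74 with Gapdh and 0.67 with beta-actin. For the other pair the r with Gapdh was -0.51 for X17163cds_s_at and -0.48 for rc_AI175959_at, at the 11.3th and 13.4th percentiles of all tested probe sets, and -0.36 and -0.35 within the 13 trained arrays. With beta-actin the r of rc_AI175959_at was -0.28, and -0.07 within the trained arrays. With the beta-actin ratio as a covariate, trained minus naive was -0.16 for rc_AA944014_at and -0.21 for rc_AA945867_at, and the F statistic of rc_AA944014_at over the 6 times was 1.33 (unadjusted p = 0.302 by limma). Whether shortened RNA has a part in these patterns was not tested. In the beta-actin ratio 12 of the 13 trained arrays exceeded every naive array. As a covariate it was added after seeing the data, and in trained minus naive it cannot separate RNA state from training. The Gapdh ratio was not used as a covariate.

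**Figure D4:**
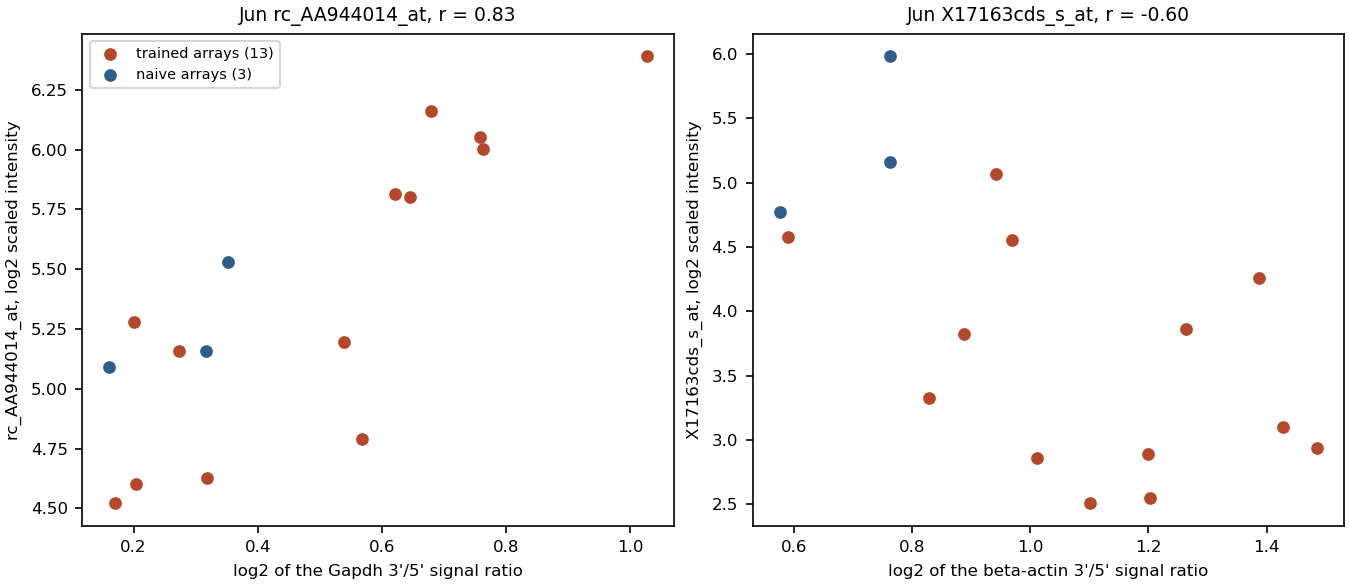
Level of a Jun probe set (log2 scaled intensity) against a 3′/5′ signal ratio (log2), 1 point per array: rc_AA944014_at against the Gapdh ratio on the left (r = 0.83) and X17163cds_s_at against the beta-actin ratio on the right (r = -0.60). The 3 naive arrays lie at low ratios in both panels. Of the 13 trained arrays, 8 exceed every naive array in the Gapdh ratio and 12 in the beta-actin ratio.

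Junb encodes a Jun relative that can hold back Jun activity at some promoters. Its probe set X54686cds_at read 39.1 and 50.0 at 0 h, 51.2 and 62.9 at 2 h, 78.1 and 53.5 at 3 h, 47.7, 55.9 and 59.6 at 6 h, 43.3 and 28.8 at 12 h, and 71.0 and 41.1 at 24 h, against 79.3, 61.3 and 41.2 on naive arrays. The lowest array was at 12 h and the highest was naive, and every hour group overlapped naive. The 12 h mean was 1.66-fold lower than naive, a difference of -0.73 (95% interval -1.43 to -0.02; unadjusted p = 0.0436; adjusted p = 0.488 by limma). It was -1.02 without 12 h replicate 1 and -0.43 without 12 h replicate 2. Over all hours the difference from naive was -0.21 (-0.71 to 0.29). With the beta-actin ratio r was -0.54 over 16 arrays, at the 4.2th percentile of all tested probe sets, and -0.58 within the 13 trained arrays. On the 12 h arrays that ratio was 2.40 and 2.80, against 1.49 to 1.70 on naive arrays. Whether shortened RNA has a part in the 12 h difference was not tested.

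The other Junb probe set, rc_AA891041_at, stayed between 36.3 and 58.7 on every trained array but those of 12 h, against 44.5, 39.4 and 50.8 on naive arrays. The 12 h arrays were the lowest and the highest of all 16, at 9.48 and 80.6, and the lower of them, replicate 1, was the array with the lowest deposited trimmed mean. The 12 h difference of -0.69 (95% interval -1.87 to 0.48) therefore rested on which array was kept: it was -2.24 without 12 h replicate 2 (adjusted p = 0.00986 by limma, in a fit where the lone 12 h array is assumed to vary like the other groups) and 0.85 without replicate 1. The 2 Junb probe sets correlated with r = -0.06.

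Jund encodes the steadily expressed Jun relative. Its single probe set, D26307cds_at, was at the lowest level on 14 of 16 arrays and was not tested. The arrays above it were 6 h replicate 3 at 6.69 and naive replicate 1 at 7.39. No group lay wholly above the lowest level, so these arrays give no time course for Jund.

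**Figure D5:**
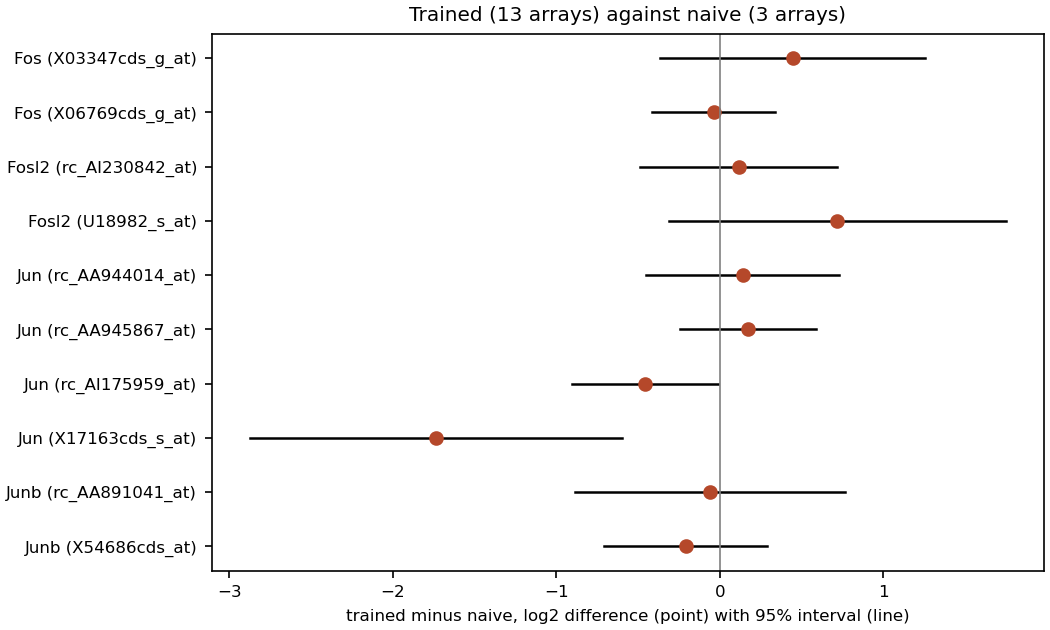
Log2 difference between trained, averaged with equal weight over the 6 hours (13 arrays), and naive (3 arrays) for the 10 tested member probe sets, as points with 95% intervals. Only the intervals of Jun X17163cds_s_at (-2.88 to -0.60) and Jun rc_AI175959_at (-0.91 to -0.01) leave out 0, and neither passed after adjustment.

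With 1 probe set for each tested gene, the brightest, 1 of Fos, Fosl2, Jun and Junb was higher on trained than on naive arrays, and the median difference was -0.12, beside -0.01 over all 6220 tested probe sets, of which 47.6% were above 0. With all 10 probe sets, 5 were above 0 and the median was 0.04. At 6 h no member probe set lay wholly above naive (4.34% of all tested) or wholly below it (6.56%). None had all 13 trained arrays above naive (0.0643% of all tested) or below it (0.193%), and none had both 0 h arrays above (2.38%) or below (2.57%) every later array. The smallest unadjusted p of a member there was 0.0729 (limma), for rc_AA944014_at, whose difference was 0.64 (95% interval -0.07 to 1.35). The Fos probe sets gave -0.17 (-0.62 to 0.29) and -0.79 (-1.76 to 0.18) in the same comparison.

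The genes whose pattern over the 16 arrays was most like each member's brightest probe set were found by Pearson's r. For Fos they were Sprr1a (0.85), St3gal2 (0.82) and Actn4 (0.77). For Jun they were Scd2 (0.86), Mgat3 (0.83) and Hpcal4 (0.80). For Fosl2 they were Hpx (0.82), Teddm1a (0.78) and Purb (0.77), and for Junb they were Pex14 (0.86), Bmyc (0.77) and Hspb1 (0.76). Each is the highest out of all tested genes, so high values are picked by construction.

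AP-1 also forms with ATF and Maf proteins, which share the leucine zipper. Of 21 such partners and related factors, 8 were tested and none passed the threshold in any comparison (limma). Trained minus naive was above 0 for 6 of the 8, with a median of 0.09. Atf3, itself a stress-induced factor that pairs with Jun, read 18.8 and 21.1 at 0 h, 31.5 and 30.1 at 2 h, 18.9 and 10.9 at 3 h, 20.5, 20.3 and 14.2 at 6 h, 40.8 and 26.2 at 12 h, and 18.2 and 19.4 at 24 h, against 16.04, 19.2 and 17.6 on naive arrays. The 2 h and 12 h arrays were the 4 highest of the 16, with differences of 0.81 (unadjusted p = 0.0371, adjusted p = 0.628) and 0.90 (unadjusted p = 0.023, adjusted p = 0.439) by limma. Of all tested probe sets, 15.3% lay wholly above naive at 2 h and 15.9% at 12 h. For the other named members of this list trained minus naive was 0.23 for Creb1, -0.10 for Maf and 0.10 for Mafk.

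Upstream, MAP kinases phosphorylate the Jun proteins and the factors on the Fos promoter, and dual-specificity phosphatases switch those kinases off. Of 34 kinases, phosphatases and factors in that list, 16 were tested and none passed in any comparison (limma). At an unadjusted p under 0.05 the count was 0 for trained against naive, 5 at 2 h, where the share of all tested probe sets was 7.67%, and 0 to 4 in the other comparisons. Of the 16, 8 had a trained minus naive difference above 0, and the median was -0.02. Dusp6, which removes phosphate from ERK, read 129 and 89.6 at 0 h, 133 and 169 at 2 h, 82.8 and 29.7 at 3 h, 121, 134 and 92.7 at 6 h, 81.2 and 113 at 12 h, and 57.3 and 49.3 at 24 h, against 71.1, 83.8 and 88.8 on naive arrays. The 0 h, 2 h and 6 h arrays were wholly above naive, as were 10%, 15.3% and 4.34% of tested probe sets at those hours. The 24 h arrays were wholly below it, as were 11.8% of tested probe sets. The F statistic was 4.94 over the 7 groups (unadjusted p = 0.00461, adjusted p = 0.287 by limma). A second Dusp6 probe set, X94185cds_s_at, gave -0.41 for trained minus naive where the first gave 0.12. Prkaca, the catalytic subunit of cyclic AMP-dependent kinase, read 164 and 178 at 2 h against 286, 287 and 396 on naive arrays, a difference of -0.90 (unadjusted p = 0.00196, adjusted p = 0.354 by limma), and its other probe set, X57986mRNA_r_at, gave -0.25. Gsk3b, a kinase that lowers Jun binding to DNA, read 56.8, 95.9 and 48.4 at 6 h against 28.6, 37.6 and 37.4 on naive arrays, a difference of 0.90 (unadjusted p = 0.00478, adjusted p = 0.388 by limma), and its other probe set, X53428cds_s_at, gave 0.60. Mapk7, which encodes ERK5, gave -0.57 for trained minus naive, and its other probe set, AJ005424_g_at, gave -0.20.

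Among 31 genes reported as AP-1 targets, 21 were tested and none passed in any comparison (limma). Of the 21, 7 had a trained minus naive difference above 0, and the median was -0.11. Cd44, a receptor for hyaluronan, read 5.69 and 7.46 at 12 h against 22.5, 14.1 and 23.2 on naive arrays. The difference was -1.58 (unadjusted p = 0.00207, adjusted p = 0.28 by limma). At 0 h Cd44 read 29.6 and 24.8, above every naive array, a pattern of 10% of tested probe sets. The other named targets were Cdk5, Mmp14 and Vim, with trained minus naive of -0.08, -0.25 and -0.09.

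Among 28 other rapidly induced genes, 19 were tested and none passed in any comparison (limma). Trained minus naive was above 0 for 10 of the 19, with a median of 0.06. Klf6 read 7.18 and 6.92 at 3 h against 33.7, 44.8 and 55.0 on naive arrays, a difference of -2.63 (SE 0.67; unadjusted p = 0.00115, adjusted p = 0.649 by limma). Its replicates were far apart at other hours, with 17.0 and 64.4 at 2 h and 8.53 and 79.1 at 12 h. Sgk1, a kinase gene induced by glucocorticoids, read 231 and 104 at 0 h and 64.5 to 121 on the later arrays, against 111, 138 and 154 on naive arrays. The 0 h arrays lay on either side of the naive range, and 0 h minus naive was 0.22 (unadjusted p = 0.49 by limma). For trained minus naive Sgk1 gave -0.51 (unadjusted p = 0.0317, adjusted p = 0.922), and for 0 h minus the later times 0.88 (unadjusted p = 0.00393, adjusted p = 0.351), both by limma. Homer1, a postsynaptic scaffold gene, had 6 probe sets, and for 0 h minus naive they gave -0.05 to 0.34, the highest value being that of the brightest, AB017140_at. The lowest unadjusted p of Homer1 was at 12 h, where AF093268_s_at gave -1.29 (unadjusted p = 0.00061 by limma) and AB017140_at -0.07. Nptx2, a secreted pentraxin gene, gave 0.43 for trained minus naive (unadjusted p = 0.0152, adjusted p = 0.922 by limma).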

How the data were processed

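RNA was measured on 16 single-colour arrays. The authors deposited linear intensity values; the sources used here name no software, background method, scaling or genome build for them. Of 8799 probe sets, 59 controls were left out. Symbols came from the platform annotation, updated by gene identifier: 7006 probe sets had 1 symbol, 308 several, and 1426 were not listed.

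Deposited intensity values were multiplied to give every array the same 2% trimmed mean (105), raised to the pooled 20th percentile (5.05) where lower, and turned to log2. Tests covered the 6220 probe sets with 2 or more arrays over 16.9, the pooled 40th percentile. They used limma 3.58.1 in R 4.3.3 (lmFit, then eBayes with a mean-variance trend), fitted to all 7 groups, with p-values adjusted over all 6220. The scripts were tested on simulated data. Precision is limited by the number of arrays; there is no read depth.

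The members and gene lists were chosen with earlier results of these data known. Every member probe set was described, with the 3 most similar genes for each tested member and, from each list, the 4 genes with the smallest p in the F test over 7 groups, using each gene's brightest tested probe set. Alternatives covered normalization, lowest level, filter, variance model, array weights, a replicate block, only the groups compared, averaged probe sets and leaving out each array. The beta-actin 3′/5′ ratio and the Ttr level as covariates were added after seeing the data.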

Additional observations from a re-analysis of the deposited data

Results flagged for a closer look

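The Fos probe set X06769cds_at, which was too dim to be tested, had both arrays above the lowest level and above every naive array at 2 h, where the lower array read 5.21, and at 24 h, where it read 9.12. The Fosl1 probe set M19651_at, also too dim to be tested, did so at 12 h, where the lower array read 5.05, at the lowest level itself to 3 digits. The naive arrays read at most 4.77 and 4.30 for these probe sets.

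The Jun probe set rc_AA944014_at had every array above naive at 0 h and 12 h, with log2 differences of 0.67 and 0.82, and every array below naive at 3 h, with a difference of -0.60. The difference among the 6 times did not pass (adjusted p = 0.408 by limma's F test), and 655 of the 6220 tested probe sets, 10.5%, had hours on opposite sides of naive.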

How the results depend on the processing

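The count of member probe sets past the threshold took in only the 10 tested in the main fit. The dim probe sets of Fos, Fosl1 and Jund therefore stayed out of it even with no filter. With only the groups compared, trained against naive and the F test over 7 groups were not run. Of 29 other settings, 28 left that count of member probe sets at 0 in every comparison that was run. The exception was the hours against naive without 12 h replicate 2, so that leaving out single arrays gave 0 to 1 there, and the array concerned is the 12 h one at which Junb rc_AA891041_at was highest; leaving out single arrays moved its 12 h difference between -2.24 and 0.85. Over all tested probe sets the same count moved more, from 1 to between 0 and 38 for the hours against naive (38 without naive replicate 1, 31 without 6 h replicate 3, 27 with no filter, 23 without 12 h replicate 2), 0 to 17 for trained against naive (17 without naive replicate 1), 0 to 9 and 0 to 10 for the F tests over 7 groups and 6 times (most with no filter), and 0 to 3 for 0 h against later times. Of 25 log2 differences of members, 13 kept their sign in every setting; for Jun X17163cds_s_at, trained minus naive ranged from -2.01 to -0.54, with a lowest adjusted p of 0.412 (limma).

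Signs turned as follows for trained minus naive. Fos X06769cds_g_at was 0.022 with quantile normalization and 0.20 with the probe sets of a gene averaged, and -0.11 to 0.020 without single arrays. Leaving out single arrays gave -0.11 to 0.25 for Fosl2 rc_AI230842_at, -0.32 to 0.20 for Junb rc_AA891041_at and -0.46 to 0.010 for Junb X54686cds_at. With the beta-actin ratio as a covariate, chosen after seeing the data, the difference was 0.31 for Fos X06769cds_g_at, -0.49 for Fosl2 U18982_s_at, -0.16 for Jun rc_AA944014_at and -0.21 for Jun rc_AA945867_at. The same covariate gave 0.036, 0.0047 and 0.099 for Jun X17163cds_s_at at 0 h, 2 h and 12 h, and -0.76 for Fosl2 U18982_s_at at 12 h. With the Ttr level as a covariate, also chosen after seeing the data, trained minus naive was -0.0058 for Jun rc_AA944014_at and 0.071 for Junb rc_AA891041_at. The cause was not tested. In the beta-actin ratio 12 of the 13 trained arrays exceeded every naive array.

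The replicate block turned Jun rc_AA944014_at to -0.0084 and gave no member a call. For Jun X17163cds_s_at, trained minus naive was -1.90 with the replicate block (unadjusted p = 9.66e-05, adjusted p = 0.518 by limma). Over all tested probe sets, whether the replicate numbers pair the arrays could not be settled. In deviations from group means, arrays of different groups with the same number correlated at a mean r of 0.03. Of these 43 pairs, 12 were over 0.1. For the other 66 pairs the mean was -0.02, with 6 over 0.1. In groups of 2 arrays the deviations mirror each other, so these means cannot decide it. Replicate 1 lay above replicate 2 in all 7 groups for 1.83% of tested probe sets, and below it for 0.723%. With 2 or 3 arrays a group and probe sets near the lowest level, Fosl1, Jund and the third Fos probe set could not be followed.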
